A study of Mus musculus with 12 samples.

Results

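Genes of the cell division cycle and of DNA replication were followed in 12 RNA-Seq libraries of cultured mouse cardiac fibroblasts. The group was fixed by gene symbol and holds 45 of the 35275 genes in the deposited count table: 20 act in or around S phase, 23 in G2 and mitosis, and 2 are the G1 cyclins Ccnd1 and Ccnd2. Fibroblasts came from the hearts of C57BL/6 mice, 12 weeks old, that carry a floxed Smad7 gene, and were used at passage 2. Control cells, called wild type in the sample titles, received a GFP adenovirus according to the sample labels (the study's methods describe it as empty). Smad7-KO cells received an adenovirus expressing Cre recombinase, which deletes the floxed gene. Both viruses were given for 48 hours at 100 MOI. By this description both genotypes came from floxed mice and had been exposed to virus. Each genotype was left unstimulated or was given TGF-β1 at 10 ng/ml. The stimulus lasted 2 hours by the sample labels and 4 hours by their treatment protocol. Each of the 4 conditions, called control, TGF-β1 control, Smad7-KO and TGF-β1 Smad7-KO, has 3 libraries. The series describes them as independent samples without naming cultures or animals, so p values measure the spread between these libraries, which may in part be technical.

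A dividing cell copies its DNA in S phase and separates the copies in mitosis, and many of the proteins needed are made only when they are used. Growth signals raise D-type cyclins, which release E2F transcription factors from Rb proteins. E2F then turns on the replication genes, and later the MuvB complex with B-Myb and FoxM1 turns on the genes of G2 and mitosis. In the heart, fibroblasts are rarely in cycle at rest, and those that enter the cycle after injury supply the myofibroblasts of the scar.

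Total counts were 19056916 to 25371321 per library. Smad7, the deleted gene, was at 71.4, 74.6 and 77.2 CPM (counts scaled to a common library size after TMM normalization) in control libraries and at 28.6, 28.4 and 31.1 CPM in Smad7-KO libraries, and with TGF-β1 at 145, 150.3 and 142 CPM against 80.8, 70.0 and 79.5 CPM. Every fibroblast marker checked, collagens among them, had reads in each library, but so did macrophage and endothelial markers. In control libraries the 12 macrophage markers summed to 15750 to 24090 CPM and the 10 fibroblast markers to 7425 to 11500 CPM. All 45 genes passed the filter on low counts that left 15150 genes for testing. Throughout, a gene is called when the quasi-likelihood test of edgeR gives it a p, adjusted over all tested genes, of 0.05 or less. Libraries of the same group stood apart along gene length. Relative to the group's mean, the Spearman correlation over all tested genes between gene length and level was -0.57 and 0.62 in control libraries 2 and 3, 0.53 and -0.53 in TGF-β1 control libraries 1 and 2, and -0.445 in TGF-β1 Smad7-KO library 3. It lay between -0.15 and 0.37 in the rest. Replicates also differed in how far apart they were. The chi-square per gene between pairs of libraries was 63.1 to 241 in control and 3.09 to 6.19 in Smad7-KO cells. With TGF-β1 it was 13.8 to 46.9 and 6.29 to 26.9. The test nevertheless estimates the spread of a gene over all 12 libraries together. In a bulk sample a change in the share of cells that are cycling cannot be told apart from a change in RNA per cell.

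Part of the G2 and mitosis genes rose in unstimulated Smad7-KO cells. Of the 23 genes 11 rose and 0 fell, against 12.1% of all tested genes that rose and 13.7% that fell in this comparison. The median log2 fold change of the 23 genes was 0.54, against -0.02 over all tested genes. Those that rose were the proliferation antigen Mki67, the topoisomerase Top2a, the cyclin Ccna2, the kinetochore and checkpoint genes Bub1b, Cenpe and Cenpf, and the spindle and cytokinesis genes Kif11, Kif23, Tpx2, Nusap1 and Prc1.

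Mki67 (chr7:135689788-135716379 of GRCm38), whose protein coats mitotic chromosomes and is absent from resting cells, was at 16.5, 20.4 and 22.7 CPM in control libraries and at 51.8, 41.8 and 49.1 CPM in Smad7-KO libraries. The lowest Smad7-KO library lay well above the highest control library (log2 fold change 1.26, SE 0.15, adjusted p = 0.000370), a 2.39-fold difference. Top2a (chr11:98992943-99024189), which untangles replicated DNA before chromosomes separate, was at 25.1, 22.5 and 27.1 CPM in controls and at 47.6, 40.1 and 44.8 CPM in Smad7-KO libraries (log2 fold change 0.82, SE 0.11, adjusted p = 0.000866). Kif11 (chr19:37376403-37421859), the motor that pushes spindle poles apart, was at 5.11, 7.09 and 5.74 CPM in controls and at 13.1, 11.3 and 11.1 CPM in Smad7-KO libraries. Its groups did not overlap (log2 fold change 0.99, SE 0.18, adjusted p = 0.00374), and its level was close to 2-fold higher in the knockout (fold 1.99).

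Ccna2 (chr3:36564866-36572150), the cyclin that partners with Cdk2 in S phase and with Cdk1 in G2, was at 6.01, 4.46 and 5.48 CPM in controls and at 9.56, 9.19 and 8.94 CPM in Smad7-KO libraries (log2 fold change 0.79, SE 0.15, adjusted p = 0.00547). Of its annotated exonic bases 12.5% overlap Exosc9 on the other strand, and whether counting used strand is not stated; the shares are 29.3% for Kif20a (Cdc23), 22.8% for Ube2c (Tnnc2) and 11.1% for Prc1 (Rccd1). Bub1b, the checkpoint kinase that holds back anaphase, was at 6.86, 5.37 and 8.98 CPM in controls and at 12.9, 11.3 and 12.6 CPM in Smad7-KO libraries (log2 fold change 0.79, SE 0.18, adjusted p = 0.0104). Cenpe, a motor that carries chromosomes to the spindle equator, was at 6.77, 3.26 and 9.702 CPM against 13.6, 11.5 and 12.5 CPM (log2 fold change 0.92, SE 0.29, adjusted p = 0.0387). The groups did not overlap for any of these genes, but control library 2 was far below its partners for Cenpe. The other genes that rose were Cenpf (log2 fold change 0.72), Prc1 (0.70), Nusap1 (0.57), Kif23 (0.54) and Tpx2 (0.38).

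**Figure D1:**
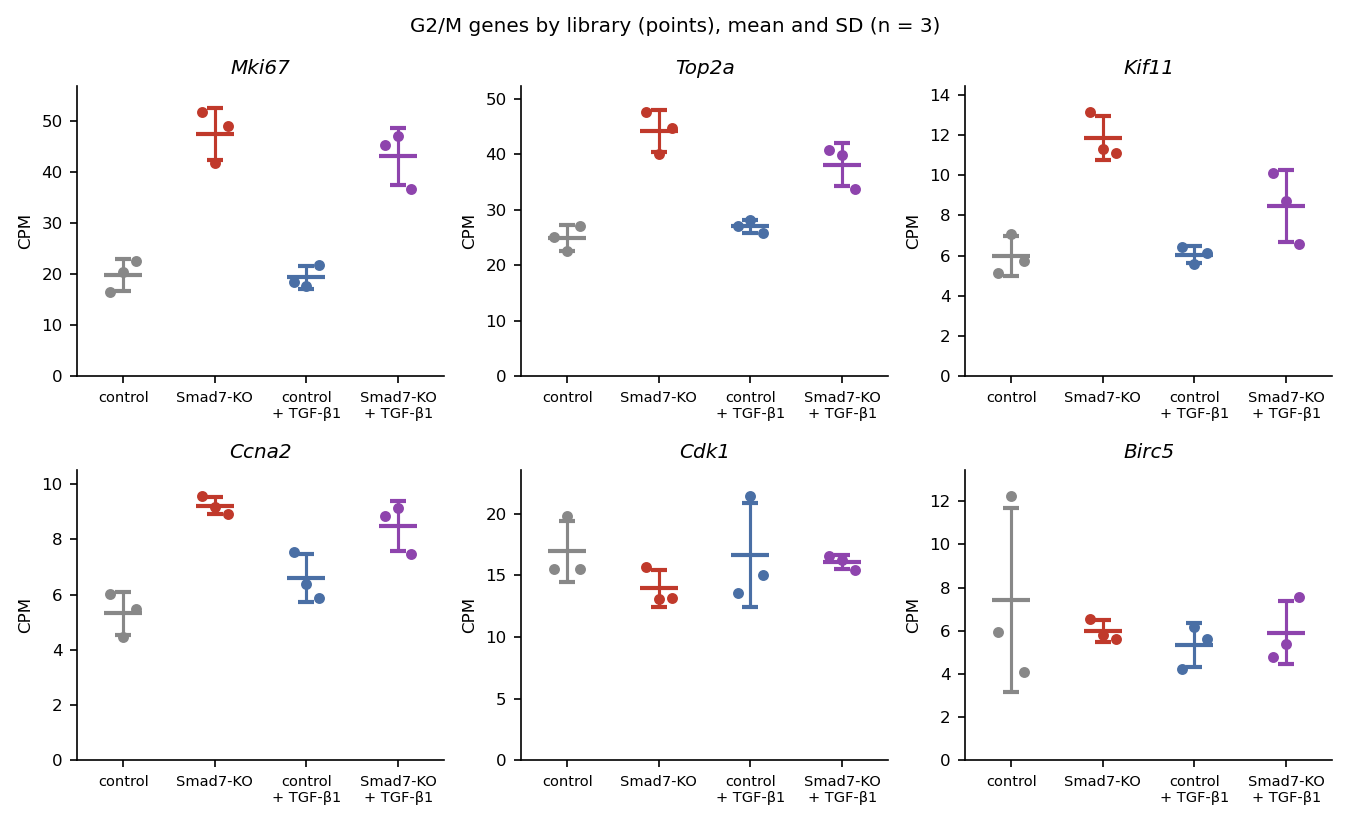
Level in CPM of 6 G2/M genes in each of the 12 libraries, by condition; points are libraries, the wide bar is the mean of 3 and the whiskers are its SD. All Smad7-KO libraries of Mki67, Top2a, Kif11 and Ccna2 lie above all unstimulated control libraries, whereas those of Cdk1 and Birc5 overlap them.

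The remaining 12 G2/M genes were not called, among them the core of the mitotic kinase system. Cdk1, the kinase that drives entry into mitosis, was at 15.5, 19.8 and 15.6 CPM in controls and at 15.7, 13.1 and 13.1 CPM in Smad7-KO libraries, and the groups overlapped (log2 fold change -0.28, SE 0.17, adjusted p = 0.231, 95% interval -0.66 to 0.10). Its partner Ccnb1 was at 8.47, 6.06 and 7.26 CPM against 6.94, 8.58 and 7.64 CPM (log2 fold change 0.09, SE 0.16, adjusted p = 0.698). Birc5, the survivin subunit of the chromosomal passenger complex, was at 5.92, 12.2 and 4.09 CPM in controls and at 6.54, 5.79 and 5.596 CPM in Smad7-KO libraries, with control library 2 far above every other library (log2 fold change -0.30, SE 0.34, adjusted p = 0.510). The upper ends of the 95% intervals, 0.10 for Cdk1, 0.44 for Ccnb1 and 0.44 for Birc5, lay below the log2 fold change of Mki67. Foxm1, the transcription factor of G2/M genes, was at 8.02, 2.51 and 6.33 CPM in controls and at 9.37, 8.76 and 9.07 CPM in Smad7-KO libraries. Its groups did not overlap, control library 2 was low, and it was not called (log2 fold change 0.68, SE 0.31, adjusted p = 0.115).

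The other genes not called had small or imprecise differences. Log2 fold changes were 0.67 for the checkpoint kinase Bub1 and 0.40 for the Aurora kinase Aurkb, each with no overlap between groups, and 0.52 for the cytokinesis motor Kif20a. They were 0.25 for the mitotic kinase Plk1, 0.08 for cyclin B2 and 0.05 for the spindle pole kinase Aurka. Both members that serve the anaphase-promoting complex, its activator Cdc20 (-0.22) and its ubiquitin-conjugating enzyme Ube2c (-0.32), had values below 0. Over all 23 genes, 14 had every Smad7-KO library above every control library and 0 had the reverse, against 22.1% and 19.2% of all tested genes.

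With TGF-β1 in both genotypes, 3 of the 23 G2/M genes rose in Smad7-KO cells and 0 fell, against 5.72% of all tested genes that rose and 7.23% that fell. Mki67 was at 18.5, 17.7 and 21.8 CPM in TGF-β1 control and at 45.4, 47.2 and 36.8 CPM in TGF-β1 Smad7-KO cells (log2 fold change 1.16, SE 0.15, adjusted p = 0.000773). Top2a was at 27.01, 28.2 and 25.8 CPM against 40.8, 39.95 and 33.7 CPM (log2 fold change 0.50, SE 0.11, adjusted p = 0.0150). Cenpf, a kinetochore protein, was at 5.46, 4.27 and 6.03 CPM against 8.86, 9.003 and 7.74 CPM (log2 fold change 0.70, SE 0.20, adjusted p = 0.0407). The groups did not overlap for these 3 genes, which had also risen in unstimulated cells.

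Most other G2/M genes lay above 0 in TGF-β1-stimulated cells without being called, and the median of the 23 was 0.35. Ccna2 was at 7.56, 6.39 and 5.88 CPM in TGF-β1 control and at 8.86, 9.14 and 7.46 CPM in TGF-β1 Smad7-KO cells, where the groups overlapped slightly (log2 fold change 0.36, SE 0.15, adjusted p = 0.145). Foxm1 was at 6.47, 4.19 and 6.03 CPM against 8.18, 7.78 and 7.88 CPM with no overlap (log2 fold change 0.52, SE 0.31, adjusted p = 0.290). Cdk1 was at 13.6, 21.4 and 15.01 CPM against 16.6, 16.3 and 15.5 CPM, Ccnb1 at 6.19, 8.297 and 7.09 CPM against 7.898, 7.83 and 7.31 CPM, and Birc5 at 4.21, 6.18 and 5.64 CPM against 4.79, 5.38 and 7.55 CPM. The libraries of these last 3 genes overlapped between groups, and their log2 fold changes were -0.05, 0.09 and 0.14. For 9 of the 23 genes every TGF-β1 Smad7-KO library lay above every TGF-β1 control library, and for 1, Cdc20 (log2 fold change -0.34, not called), every one lay below, against 21.9% and 23.0% of all tested genes.

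**Figure D2:**
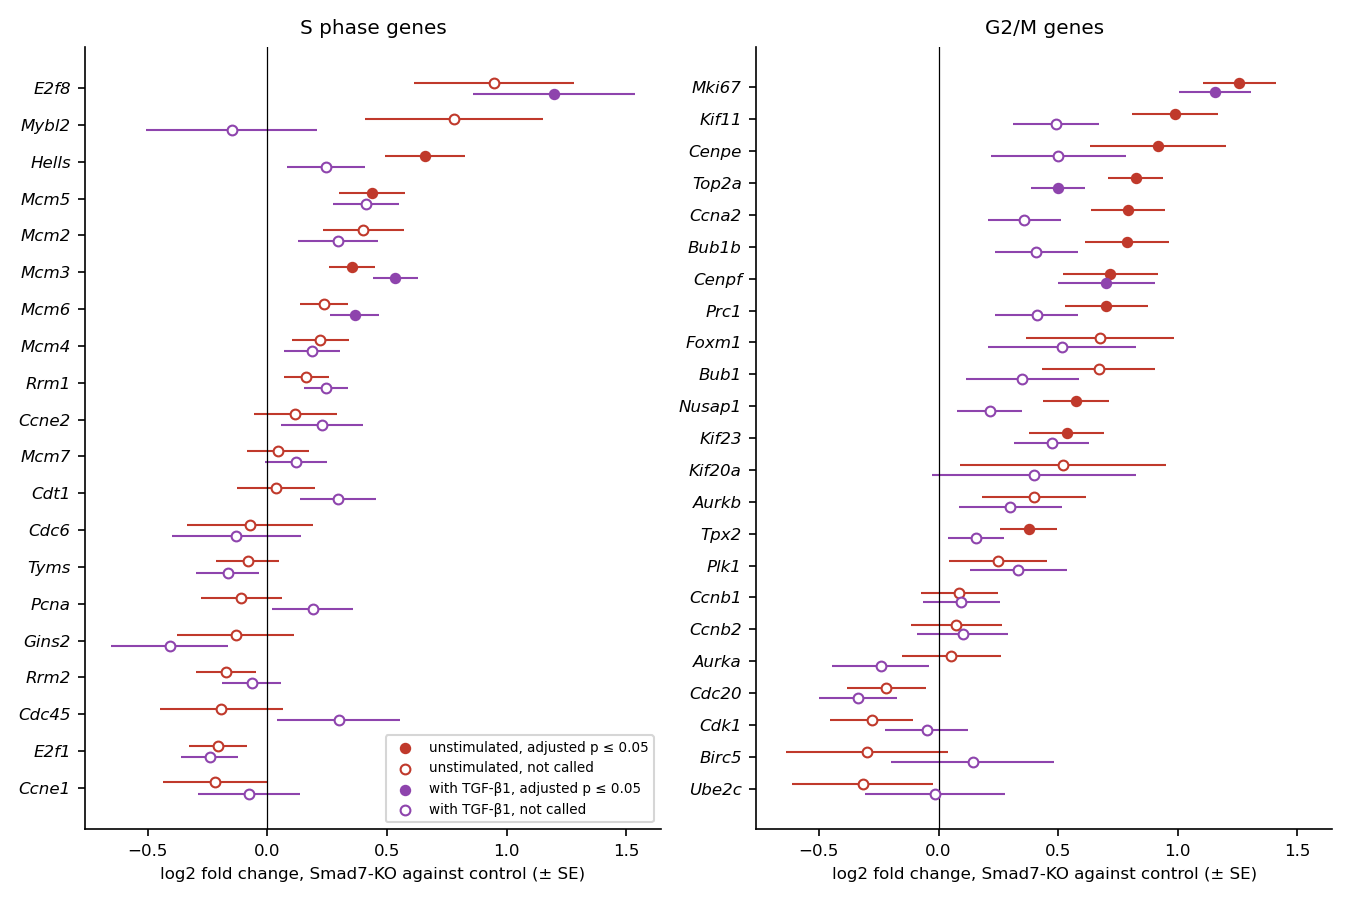
Log2 fold change with its SE for each S phase gene (left) and G2/M gene (right), Smad7-KO against control, in unstimulated cells (red) and with TGF-β1 (purple); filled points have an adjusted p of 0.05 or less. In unstimulated cells 11 G2/M genes and 3 S phase genes are filled, all to the right of 0.

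How firmly a G2/M gene was called depended on the libraries entered. Mki67, Top2a, Ccna2, Bub1b and Kif11 kept their call in unstimulated cells in each of the 12 fits that left out 1 library, whereas Nusap1 kept it in 11, Prc1 in 10, Cenpf and Kif23 in 7, and Cenpe and Tpx2 in 4. The number of G2/M genes called in unstimulated cells was 7 without control library 1, 5, 7 and 6 without Smad7-KO libraries 1, 2 and 3, and 9 without control libraries 2 and 3 together. When just the 6 libraries compared were entered it was 3, namely Mki67, Top2a and Kif11. With TGF-β1 the number was 8 on only the 6 libraries of that comparison, 9 without unstimulated control library 2 or without both control libraries 2 and 3, and 1 without TGF-β1 control library 3 or without TGF-β1 Smad7-KO library 1 or 2. Mki67 kept its call with TGF-β1 in all 12 fits without 1 library, Top2a in 9 and Cenpf in 2. In these fits 0 G2/M genes were called lower in Smad7-KO cells. The share of all tested genes called in each of these fits is not given here. Whether the number moved with that share or for these genes in particular was not tested.

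Gene length moved with the result. Among the 23 G2/M genes the Spearman correlation between gene length, as the deposited table gives it, and log2 fold change was 0.79 in unstimulated cells and 0.86 with TGF-β1, against 0.43 and 0.31 over all tested genes. The genes share libraries, so these values are descriptions. In unstimulated cells the 11 genes that rose had a median length of 4365 bases and the other 12 one of 2346 bases. Mki67 (10075 bases) and Cenpf (11137 bases) are the longest of the 45 genes, and Ccnb2 (1541 bases), Cdc20 (1793 bases) and Aurka (1905 bases) the shortest of the G2/M genes. Over all tested genes the median log2 fold change in unstimulated cells went from -0.52 for genes of at most 1642 bases to 0.37 for those of 4851 bases or more.

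A fit that removed each library's trend on gene length again called 11 G2/M genes higher and 0 lower in unstimulated cells, where 14.0% of all tested genes were called higher and 15.0% lower. Of these, 9 were shared with the fit above. After removal the Spearman correlation of gene length with log2 fold change over the 23 genes was still 0.43 without and 0.35 with TGF-β1. Over all tested genes it was 0.08 and 0.046, so this fit did not free the G2/M genes of length. Mki67 remained called with a smaller difference (log2 fold change 0.69, adjusted p = 0.0316), as did Top2a (0.55, adjusted p = 0.00382) and Ccna2 (0.80, adjusted p = 0.00160). Cenpf (0.20) and Tpx2 (0.19) were no longer called, and Ccnb2 (0.39) and Aurkb (0.59) were. With TGF-β1 that fit called 6 G2/M genes higher, namely Mki67, Top2a, Ccna2, Bub1b, Kif23 and Prc1, and 0 lower, where 12.9% of all tested genes were called higher and 10.3% lower. Cdk1, Ccnb1 and Birc5 were called in neither comparison.

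**Figure D3:**
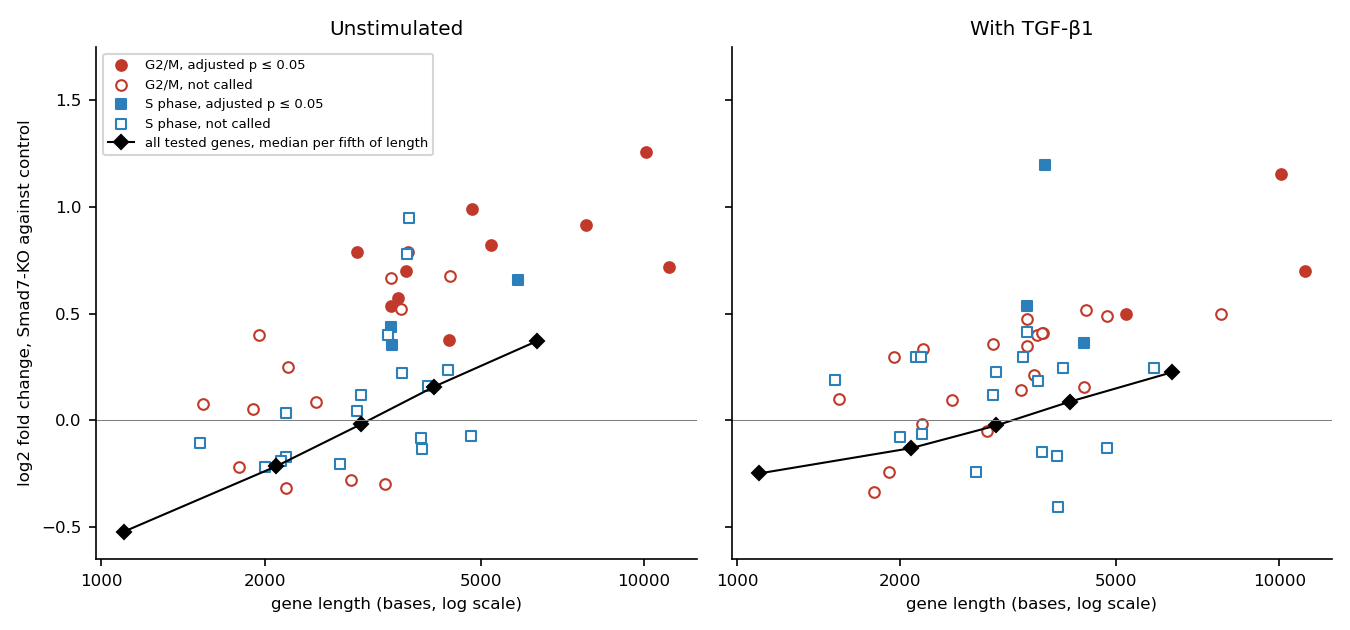
Log2 fold change of Smad7-KO against control by gene length (log axis) for the G2/M genes (red circles) and S phase genes (blue squares), with the median of all tested genes in each of 5 length classes as black diamonds. In unstimulated cells the diamonds climb from -0.52 to 0.37, and most G2/M genes lie above the diamonds of their length.

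The sequences upstream of G2/M genes that rose and that did not are shown because these genes are known to share promoter elements. The cell cycle homology region is read here as TTTGAA and the CCAAT box, bound by NF-Y, as CCAAT, each searched on both strands in RefSeq windows of GRCm38.p6 that run from 250 bases before to 50 bases after a start. Windows were found for 18 of the 23 genes. Both motifs were in 14 of their 19 windows (73.7%), against 6.95% of all 32851 windows. Of the 9 genes with a window that rose in unstimulated Smad7-KO cells 7 held both motifs, as did 6 of the 9 that were not called. In the 250 bases before each start below, capitals mark these motifs, for Mki67 (chr7:135716380-135716629, minus strand), Top2a (chr11:99024190-99024439, minus strand) and Cdk1 (chr10:69352913-69353162, minus strand).
Mki67: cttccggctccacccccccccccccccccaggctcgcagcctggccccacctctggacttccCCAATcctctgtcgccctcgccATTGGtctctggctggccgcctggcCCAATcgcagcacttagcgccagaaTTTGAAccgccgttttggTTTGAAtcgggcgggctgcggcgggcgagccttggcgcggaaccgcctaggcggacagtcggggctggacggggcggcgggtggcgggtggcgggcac
Top2a: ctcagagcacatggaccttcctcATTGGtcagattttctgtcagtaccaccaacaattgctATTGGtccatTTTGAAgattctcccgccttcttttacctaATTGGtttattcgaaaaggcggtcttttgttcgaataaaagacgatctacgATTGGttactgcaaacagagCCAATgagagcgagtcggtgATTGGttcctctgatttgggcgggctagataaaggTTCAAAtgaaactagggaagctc
Cdk1: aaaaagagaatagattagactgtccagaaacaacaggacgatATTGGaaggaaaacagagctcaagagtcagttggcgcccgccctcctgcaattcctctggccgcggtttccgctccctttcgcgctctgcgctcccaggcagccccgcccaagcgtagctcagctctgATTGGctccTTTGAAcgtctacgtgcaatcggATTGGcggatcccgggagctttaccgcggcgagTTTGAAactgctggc
Mki67 and Top2a, which rose, and Cdk1, which was not called, each held 2 copies of the homology region in this stretch, and no copy overlapped a CCAAT box. A match is a description of letters and says nothing of binding in these cells.

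Few S phase genes were called between genotypes. In unstimulated cells 3 of the 20 (Mcm3, Mcm5 and Hells) rose in Smad7-KO cells and 0 fell, against the 12.1% and 13.7% of all tested genes given above, and their median log2 fold change was 0.08. Mcm3 and Mcm5 are subunits of the MCM helicase that unwinds DNA ahead of the fork, and Hells is a chromatin remodeller of replicating cells. Mcm3 (chr1:20802968-20820312) was at 23.2, 21.1 and 23.6 CPM in controls and at 30.4, 28.2 and 28.3 CPM in Smad7-KO libraries (log2 fold change 0.35, SE 0.095, adjusted p = 0.0231). Mcm5 (chr8:75109528-75128439) was at 15.2, 13.7 and 11.5 CPM against 17.6, 17.9 and 19.04 CPM (log2 fold change 0.44, SE 0.14, adjusted p = 0.0411). Hells (chr19:38930915-38971051) was at 3.77, 3.77 and 4.77 CPM against 6.84, 7.297 and 5.34 CPM (log2 fold change 0.66, SE 0.17, adjusted p = 0.0188). No library of one group lay within the other for these 3 genes.

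No other member of the helicase and its loaders was called. Mcm2 was at 20.04, 13.5 and 22.02 CPM in controls and at 24.3, 24.4 and 24.8 CPM in Smad7-KO libraries, with control library 2 low and no overlap between groups (log2 fold change 0.40, SE 0.17, adjusted p = 0.0929). Log2 fold changes were 0.24 for Mcm6, whose groups did not overlap either, 0.22 for Mcm4 and 0.05 for Mcm7, and 0.04 for the loading factor Cdt1. Cdc6, the other loading factor, was at 1.93, 3.20 and 2.74 CPM in controls and at 2.58, 2.19 and 2.69 CPM in Smad7-KO libraries and overlapped fully (log2 fold change -0.07, SE 0.26, adjusted p = 0.845). Cdc45 (-0.19) and Gins2 (-0.13) complete the active helicase. Of the exonic bases of Gins2 67.3% overlap Gse1 on the other strand, so its count is uncertain. For Mcm7 12.6% overlap other genes, with 3.89% on its own strand.

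The sliding clamp and the enzymes that make DNA precursors were not called between unstimulated genotypes. Pcna, the clamp, was at 89.9, 132 and 76.4 CPM in controls and at 92.3, 90.4 and 93.4 CPM in Smad7-KO libraries, with control library 2 above all others (log2 fold change -0.11, SE 0.17, adjusted p = 0.634). The small subunit of ribonucleotide reductase, Rrm2, was at 13.8, 14.9 and 13.5 CPM against 14.5, 10.7 and 12.2 CPM (log2 fold change -0.17, SE 0.12, adjusted p = 0.301), and the large subunit Rrm1 had a log2 fold change of 0.16. Tyms, which makes thymidylate, was at 9.502, 9.83 and 9.79 CPM against 9.56, 9.57 and 8.37 CPM (log2 fold change -0.08, SE 0.13, adjusted p = 0.649). None of these differences was as large as that of Hells.

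None of the regulators of S phase in the list was called. E2f1, an activator of replication genes, was at 49.7, 59.5 and 44.8 CPM in controls and at 45.1, 40.6 and 47.9 CPM in Smad7-KO libraries (log2 fold change -0.21, SE 0.12, adjusted p = 0.204). E2f8, a repressor of the same family, was at 2.11, 1.43 and 1.14 CPM against 3.22, 3.05 and 2.78 CPM, with no overlap (log2 fold change 0.95, SE 0.33, adjusted p = 0.0555). Mybl2, which encodes B-Myb, was at 1.93, 0.514 and 2.07 CPM against 2.87, 2.19 and 2.86 CPM (log2 fold change 0.78, SE 0.37, adjusted p = 0.128). Control library 2 was the lowest of all 12 for Mybl2, and of the exonic bases of E2f8 11.2% overlap Gm2788 on the other strand. For Ccne2, given next, 17.4% overlap Ints8 on the other strand. The cyclins of S phase entry overlapped between groups, Ccne1 at 6.77, 8.46 and 5.61 CPM against 5.797, 5.24 and 6.81 CPM (log2 fold change -0.22, SE 0.22, adjusted p = 0.448) and Ccne2 at 3.899, 3.89 and 4.98 CPM against 4.41, 4.55 and 4.902 CPM (log2 fold change 0.12, SE 0.17, adjusted p = 0.620).

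With TGF-β1 in both genotypes, 3 S phase genes rose in Smad7-KO cells and 0 fell, against 5.72% of all tested genes that rose, and the median of the 20 was 0.21. Mcm3 was at 28.9, 33.8 and 31.0 CPM in TGF-β1 control and at 45.99, 44.8 and 44.96 CPM in TGF-β1 Smad7-KO cells (log2 fold change 0.53, SE 0.094, adjusted p = 0.00409). Mcm6 was at 53.1, 55.3 and 51.02 CPM against 71.4, 68.0 and 65.9 CPM (log2 fold change 0.36, SE 0.10, adjusted p = 0.0346), and E2f8 at 1.25, 0.732 and 1.895 CPM against 3.35, 3.35 and 2.12 CPM (log2 fold change 1.20, SE 0.34, adjusted p = 0.0384). The groups did not overlap for any of the 3, and E2f8 rested on few reads. Mcm3 was called with and without TGF-β1. Mcm5 was at 11.9, 15.2 and 14.1 CPM against 17.1, 17.2 and 20.6 CPM and was not called (log2 fold change 0.41, SE 0.14, adjusted p = 0.0710).

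The other named S phase genes were not called between the TGF-β1-stimulated genotypes. Log2 fold changes were 0.30 for Mcm2, 0.19 for Pcna, -0.07 for Rrm2, -0.17 for Tyms, -0.24 for E2f1, -0.08 for Ccne1, 0.23 for Ccne2 and -0.13 for Cdc6. E2f1 was the gene of this list with every TGF-β1 Smad7-KO library below every TGF-β1 control library, at 39.5, 36.3 and 39.4 CPM against 46.5, 48.3 and 41.4 CPM. Over the 12 fits without 1 library, Mcm3 kept its call in 12 and Mcm6 and E2f8 in 3 and 5. In unstimulated cells the S phase count was 0 without Smad7-KO library 1 or 2, 1 without Smad7-KO library 3, 0 with only the 6 libraries of the comparison, and 1, Mcm3, with the trend on gene length removed. With TGF-β1 it was 1 without either of TGF-β1 control libraries 1 and 2, any Smad7-KO library, or TGF-β1 Smad7-KO library 1 or 2, and 5 without unstimulated control library 2. Shares of all tested genes called in the fits on fewer libraries are not given here.

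TGF-β1 raised a small set of replication genes in both genotypes. In control cells 4 of the 20 S phase genes rose with TGF-β1 and 0 fell, against 5.04% of all tested genes that rose and 3.33% that fell, and in Smad7-KO cells 4 rose and 0 fell, against 5.33% and 4.9%. Mcm3, Mcm6 and Rrm2 rose in both genotypes, Tyms was called in control cells and Cdt1 in Smad7-KO cells. The medians of the 20 genes were 0.03 in control and 0.10 in Smad7-KO cells, against -0.03 and -0.01 over all tested genes.

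Mcm6 (chr1:128331590-128359664), a helicase subunit, was at 32.8, 37.9 and 29.6 CPM in unstimulated and at 53.1, 55.3 and 51.02 CPM in TGF-β1 control libraries (log2 fold change 0.67, SE 0.10, adjusted p = 0.00131). In Smad7-KO cells it was at 39.4, 40.0 and 38.5 CPM without and at 71.4, 68.0 and 65.9 CPM with TGF-β1 (log2 fold change 0.80, SE 0.10, adjusted p = 0.000315). All stimulated libraries lay above all unstimulated libraries of the same genotype. Mcm3 went from the levels given above for unstimulated cells to those given for stimulated cells, with a log2 fold change of 0.46 in control (SE 0.095, adjusted p = 0.00937) and of 0.64 in Smad7-KO cells (SE 0.095, adjusted p = 0.000881).

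Rrm2 (chr12:24708241-24714146), which limits the supply of deoxyribonucleotides, was at 13.8, 14.9 and 13.5 CPM in unstimulated and at 21.1, 21.2 and 19.0 CPM in TGF-β1 control libraries (log2 fold change 0.54, SE 0.12, adjusted p = 0.0165). In Smad7-KO cells it was at 14.5, 10.7 and 12.2 CPM without and at 20.5, 18.7 and 19.4 CPM with TGF-β1 (log2 fold change 0.65, SE 0.12, adjusted p = 0.00526). Cdt1 (chr8:122568015-122573128), which loads the helicase onto origins, was at 11.2, 9.999 and 8.52 CPM without and at 13.9, 15.7 and 14.5 CPM with TGF-β1 in control cells, just short of the threshold (log2 fold change 0.57, SE 0.16, adjusted p = 0.0533). It was at 8.37, 9.87 and 12.2 CPM without and at 19.1, 15.3 and 19.8 CPM with TGF-β1 in Smad7-KO cells (log2 fold change 0.83, SE 0.16, adjusted p = 0.00616). Tyms was at 11.1, 14.9 and 14.4 CPM in TGF-β1 control libraries (log2 fold change 0.47, SE 0.13, adjusted p = 0.0479) and at 12.6, 12.03 and 11.4 CPM in TGF-β1 Smad7-KO cells (log2 fold change 0.39, SE 0.13, adjusted p = 0.0969). For all 3 genes the stimulated libraries lay above the unstimulated libraries in both genotypes, also where the test was not passed.

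**Figure D4:**
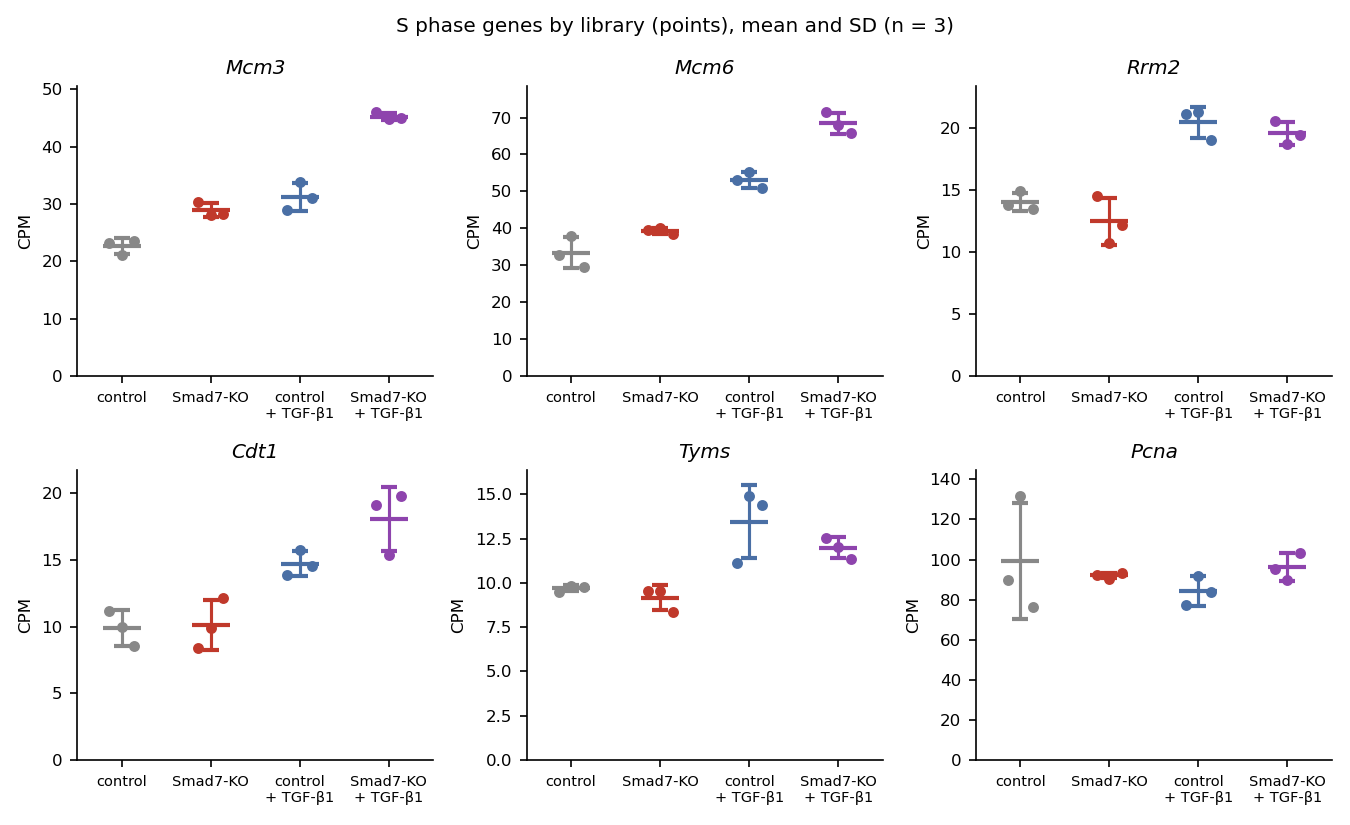
Level in CPM of 6 S phase genes in each of the 12 libraries, by condition; points are libraries, the wide bar is the mean of 3 and the whiskers are its SD. Mcm3, Mcm6, Rrm2 and Tyms are higher in all TGF-β1 libraries than in all unstimulated libraries of the same genotype, and Pcna overlaps.

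The other S phase genes were not called with TGF-β1. Pcna was at 77.1, 91.96 and 83.8 CPM in TGF-β1 control and at 95.1, 89.6 and 104 CPM in TGF-β1 Smad7-KO cells, with log2 fold changes against no stimulation of -0.24 and 0.06. Cdc6, which works beside Cdt1, was at 1.98, 1.83 and 2.28 CPM and at 1.24, 1.99 and 2.36 CPM with TGF-β1, with log2 fold changes of -0.36 and -0.42. Those of Mcm2 were 0.22 and 0.11, of Mcm5 0.03 and 0.01, of E2f1 -0.18 and -0.21, of Ccne1 -0.02 and 0.13, and of Ccne2 -0.03 and 0.08, in control and Smad7-KO cells in that order. Of the other subunits of the MCM ring, Mcm7 had values of -0.05 and 0.02. Mcm4 had values of 0.29 and 0.25, with every stimulated library above every unstimulated library of the same genotype, and did not pass the test. Mybl2 was at 2.63, 2.64 and 2.87 CPM in TGF-β1 control libraries, with control library 2 low before stimulation (log2 fold change 0.82, SE 0.37, adjusted p = 0.243), and had a log2 fold change of -0.11 in Smad7-KO cells.

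No G2/M gene passed the test for TGF-β1. In control cells 0 of the 23 were called, against 5.04% of all tested genes that rose and 3.33% that fell. At an unadjusted p under 0.05 in edgeR there were 0, against 3073 of the 15150 tested genes. In Smad7-KO cells 0 were called, against 5.33% and 4.9% of all tested genes, with 2 at an unadjusted p under 0.05. Shares of called genes this low leave few calls to expect among 23 genes. DESeq2 also called 0 in both, as did limma, which left out Cenpf for its low FPKM. Medians were 0.02 and -0.09. Log2 fold changes of Mki67 were -0.04 in control (95% interval -0.37 to 0.29) and -0.14 in Smad7-KO cells (95% interval -0.46 to 0.18). Those farthest from 0 in control cells were Birc5 (-0.46), Aurka (0.34) and Ccna2 (0.31), and in Smad7-KO cells Kif11 (log2 fold change -0.48, SE 0.18, adjusted p = 0.127), Nusap1 (-0.32) and Bub1b (-0.25). Kif11 was at 10.1, 8.73 and 6.56 CPM in TGF-β1 Smad7-KO cells, each below every unstimulated Smad7-KO library, and it was called lower on only the 6 libraries of that comparison and without control libraries 2 and 3.

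**Figure D5:**
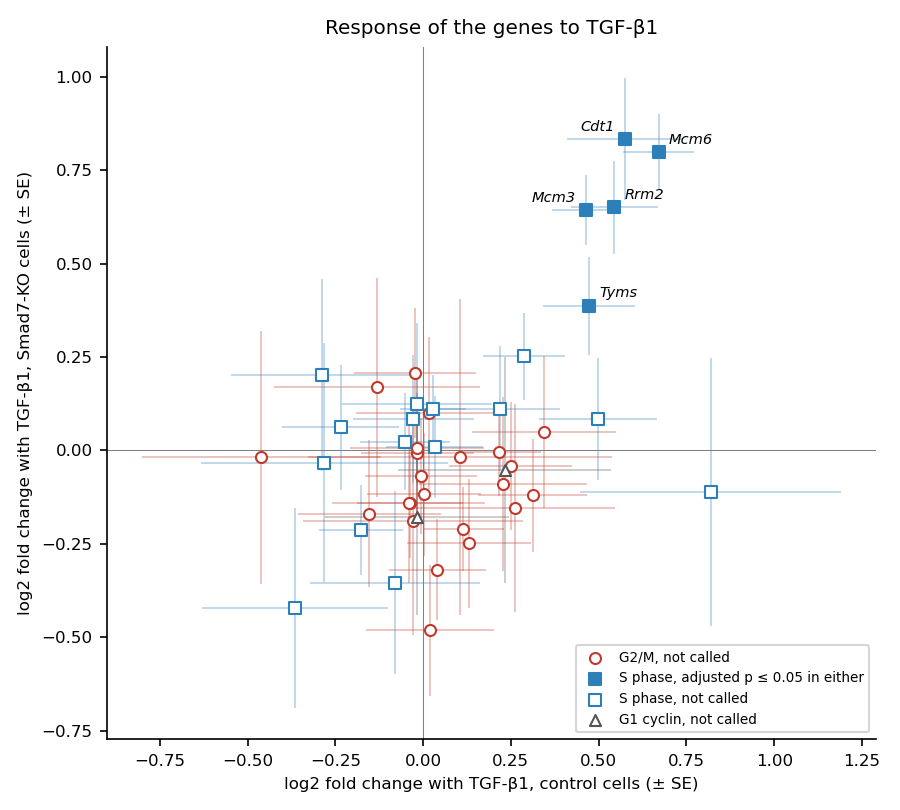
Log2 fold change with TGF-β1 in control cells (horizontal) and in Smad7-KO cells (vertical), each with its SE, for the S phase genes (blue), G2/M genes (red) and G1 cyclins (grey). The 5 filled squares, called in at least 1 genotype, lie in the upper right, and the G2/M genes lie around 0.

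Upstream of the S phase genes the element of interest is the E2F site, searched on both strands as TTTCCCGC, TTTCGCGC, TTTGCCGC or TTTGGCGC. Windows were found for 17 of the 20 genes, and 7 of their 18 windows (38.9%) held a site, against 2.26% of all windows and 1 of the 19 windows of G2/M genes. Among the 5 genes called with TGF-β1 in at least 1 genotype, Cdt1, Mcm3 and Mcm6 held a site, and of the 12 others with a window Cdc6, Hells, Mcm5 and Mcm7 did. The 250 bases before the start are shown for Mcm6 (chr1:128359706-128359955, minus strand), which rose with TGF-β1, and for Mcm5 (chr8:75109259-75109508, plus strand), which did not pass the test, with E2F sites in capitals. Neighbouring sites overlap in both.
Mcm6: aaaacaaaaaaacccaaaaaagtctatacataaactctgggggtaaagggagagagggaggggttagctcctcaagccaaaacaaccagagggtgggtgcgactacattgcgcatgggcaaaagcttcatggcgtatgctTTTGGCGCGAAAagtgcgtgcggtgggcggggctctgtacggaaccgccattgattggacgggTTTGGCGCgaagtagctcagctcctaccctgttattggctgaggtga
Mcm5: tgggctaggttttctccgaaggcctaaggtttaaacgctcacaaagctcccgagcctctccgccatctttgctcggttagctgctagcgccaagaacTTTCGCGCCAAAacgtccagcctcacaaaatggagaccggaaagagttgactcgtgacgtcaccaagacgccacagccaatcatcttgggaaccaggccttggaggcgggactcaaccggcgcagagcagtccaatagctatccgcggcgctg
Both genes held E2F sites before the start, whatever their response.

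The response to TGF-β1 was not shown to differ between genotypes. In the interaction, 0 of the 45 genes were called by edgeR and 0 had an unadjusted p under 0.05, against 0.0198% of all tested genes called. DESeq2 also called 0, as did limma, which left out genes of low FPKM such as Mybl2. The values farthest from 0 were those of Mybl2 among S phase genes (-0.93, SE 0.52) and of Kif11 among G2/M genes (log2 fold change -0.50, SE 0.25, adjusted p = 0.980, 95% interval -1.05 to 0.05). For Cdt1, called in Smad7-KO and not in control cells, it was 0.26 (SE 0.23, 95% interval -0.24 to 0.76), and for Tyms -0.08 (SE 0.19). Over the 12 fits without 1 library the calls of Mcm3 and Mcm6 in control cells were kept in 12, that of Rrm2 in 9 and that of Tyms in 2. In control cells the calls for S phase genes with TGF-β1 fell from 4 to 2 without control library 1 or without TGF-β1 control library 2, and to 0 on only the 6 libraries of that comparison. In Smad7-KO cells they stayed at 4 without any 1 library and were 6 on only the 6 libraries of that comparison. These counts too stand without the share of all tested genes called in the same fit.

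The G1 cyclins had the highest levels per gene length of the 45 genes. Ccnd1 and Ccnd2, which start the path to S phase with Cdk4 and Cdk6, were at 119 ± 63.9 and 92.4 ± 44.7 FPKM (SD, n = 3) in control libraries, against 1.96 ± 0.344 FPKM for Mki67 and 0.539 ± 0.112 FPKM for Cdc6. Ccnd1 was at 492, 197 and 622 CPM in the control group, 451, 428 and 429 CPM in Smad7-KO, 593, 440.0 and 506 CPM in TGF-β1 control and 424, 447 and 391 CPM in TGF-β1 Smad7-KO cells. Ccnd2 was at 515, 296 and 750.4, 587, 532 and 542, 602, 433 and 507 and 528, 527 and 412 CPM in the same order. Control library 2 was lowest and control library 3 highest of all 12 for both, and the groups overlapped except for Ccnd2 between unstimulated and TGF-β1 Smad7-KO libraries. Of the exonic bases of Ccnd1 23.4% overlap a gene on the other strand. Neither cyclin was called in any comparison by edgeR on all libraries; between unstimulated genotypes the log2 fold change was -0.00 for Ccnd1 (95% interval -0.67 to 0.66) and 0.09 for Ccnd2 (95% interval -0.48 to 0.66). Without control libraries 2 and 3, TGF-β1 Smad7-KO cells had a called decrease of Ccnd1 relative to their control.

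Other genes of these pathways, from lists of S phase and G2/M genes that hold none of the 45, moved in both directions. Of 42 other G2/M genes 11 rose and 3 fell in unstimulated Smad7-KO cells, where 12.1% of all tested genes rose and 13.7% fell, and with TGF-β1 5 rose and 1 fell, where 5.72% rose and 7.23% fell. Gas2l3, a cytoskeletal linker needed for cytokinesis, was at 18.1, 14.7 and 25.4 CPM in controls and at 45.6, 43.3 and 50.4 CPM in Smad7-KO libraries (log2 fold change 1.25, SE 0.19, adjusted p = 0.00148). Cks1b, a small subunit of cyclin-dependent kinases, fell (log2 fold change -1.09, adjusted p = 0.0277). Pttg1, the securin that restrains separase, also fell (log2 fold change -1.01, adjusted p = 0.0467), but its groups overlapped. It was at 34.1, 68.2 and 21.85 CPM in controls and at 18.3, 23.6 and 19.65 CPM in Smad7-KO libraries. Control library 2 was the highest of all 12 for both genes. With TGF-β1 the largest changes were those of Gas2l3 (1.13), the phosphatase Cdc25b (1.04), which activates Cdk1, and the motor Kif20b (0.93).

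Of the 39 other S phase genes tested 11 rose and 1 fell in unstimulated Smad7-KO cells, beside the same 12.1% and 13.7% of all tested genes, and with TGF-β1 4 rose and 0 fell, beside 5.72% and 7.23%. Brip1 and Blm, helicases of DNA repair, rose (log2 fold changes 1.22 and 1.05), and Dut, which keeps uracil out of DNA, fell (-1.08). With TGF-β1 Blm (1.18), the chromatin protein Atad2 (0.77) and the polymerase subunit Pold3 (0.60) rose. Gene length moved with these values too, with a Spearman correlation of 0.70 over the 39 S phase genes and 0.45 over the 42 G2/M genes in unstimulated cells. For TGF-β1, 0 of the other S phase genes were called in either genotype. Beside this, 5.04% of all tested genes rose and 3.33% fell in control cells, and 5.33% and 4.9% in Smad7-KO cells. Of the other G2/M genes it raised Cbx5 in control cells (0.67), lowered Lbr in both (-0.49 and -0.83) and lowered the centromeric histone Cenpa in Smad7-KO cells (-0.92).

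Of the 16 other Rb, E2F and DREAM genes 5 rose in unstimulated Smad7-KO cells and 4 with TGF-β1, and 0 fell, beside 12.1% and 5.72% of all tested genes that rose. E2f2, an activator of replication genes, was at 3.68, 2.86 and 2.36 CPM in the control group, 5.65, 3.56 and 7.201 CPM in Smad7-KO, 6.19, 6.06 and 5.44 CPM in TGF-β1 control and 12.3, 10.8 and 11.9 CPM in TGF-β1 Smad7-KO cells. The groups overlapped between the unstimulated genotypes, where the call was lost with the trend on gene length removed (log2 fold change 0.64, adjusted p = 0.0809). E2f2 was called higher in all 4 pairwise comparisons, with log2 fold changes of 0.88 and 0.98 for Smad7-KO against control without and with TGF-β1, and of 0.99 and 1.09 for TGF-β1 in control and Smad7-KO cells. The pocket protein Rbl1 (1.09) and the MuvB subunit Lin9 (0.85) rose in unstimulated Smad7-KO cells, and did so with TGF-β1 (0.65 and 0.52). With TGF-β1 E2f4 rose in control (0.45) and Smad7-KO cells (0.48), Lin9 in control cells (0.79) and E2f3 in Smad7-KO cells (0.60), where Rb1 fell (-0.50).

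Of 14 other cyclins, cyclin-dependent kinases and their inhibitors tested, 1 rose and 3 fell in unstimulated Smad7-KO cells, beside 12.1% and 13.7% of all tested genes. With so few genes these counts cannot be told apart from those shares. The inhibitors Cdkn2a, Cdkn1c and Cdkn2b fell (log2 fold changes -1.51, -1.43 and -1.05), and the G1 kinase Cdk6 rose (1.36, adjusted p = 0.0440). The groups did not overlap for these genes, but control libraries spread widely for Cdkn2a (121, 237.5 and 74.9 CPM) and Cdk6 (9.95, 6.86 and 27.7 CPM). Cdkn1c was low, at 2.96, 3.66 and 2.83 CPM in controls. With TGF-β1 Cdkn2b was lower in Smad7-KO cells (-0.80). TGF-β1 raised the phosphatase Cdc25a, which opens S phase, in control (0.64) and Smad7-KO cells (0.48), and lowered the inhibitor Cdkn1b in both (-0.41 and -0.49).

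Markers of other cell types moved with genotype beside the G2/M genes. Of 12 macrophage markers 7 rose and 0 fell in unstimulated Smad7-KO cells, and 6 rose and 0 fell with TGF-β1, beside 12.1% and 13.7% of all tested genes without and 5.72% and 7.23% with TGF-β1. Their summed level was 15750 to 24090 CPM in control, 22410 to 24630 CPM in Smad7-KO, 15490 to 17860 CPM in TGF-β1 control and 21680 to 24140 CPM in TGF-β1 Smad7-KO cells, and no macrophage marker was at 0 in any library. Lyz2 made up most of this sum, at 8952 to 15720 CPM in control libraries. Of 12 endothelial markers 9 fell and 1, Vwf, rose in both comparisons, with a summed level of 630.5 to 667 CPM in control and 214 to 232 CPM in Smad7-KO libraries. Eng made up much of these sums, at 311 to 343 CPM in control and 162 to 173 CPM in Smad7-KO libraries. Pecam1, among those that fell, was at 47.5 to 52.7 CPM and at 2.06 to 2.92 CPM. Summed over the 10 fibroblast markers the level was 7425 to 11500 CPM in control and 9470 to 10120 CPM in Smad7-KO libraries, with Dcn and Lum higher and Tcf21 and Thy1 lower in both comparisons. Of 8 smooth muscle and pericyte markers 4 fell in unstimulated cells and 3 with TGF-β1. Of 8 cardiomyocyte markers 4 were tested, of which 2 fell in unstimulated cells and 0 with TGF-β1. The summed level of the 8 was 33.7 to 78.05 CPM in control and 18.6 to 24.8 CPM in Smad7-KO libraries, and Nppa was at 0 in 11 libraries. Which cells carried the G2/M transcripts, and the part of these markers in the result, was not tested.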

How the data were processed

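Total RNA from 12 samples of cultured mouse cardiac fibroblasts was sequenced after polyA selection. The authors deposited 2 tables of all genes and libraries, one of read counts and one of FPKM values. The submitters' processing notes name CASAVA, TopHat2, HTSeq 0.6.1 and Cufflinks 2.1.1 and the build GRCm38.p6 (mm10); strand use in counting is not given in the sources used here. The deposited counts were whole reads per gene, unnormalised, and the deposited FPKM values, which scale counts by gene length and depth, were used for levels between genes and for limma.

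Counts were fitted with edgeR 4.0.16 (R 4.3.3): TMM scaling, genes passing filterByExpr with a minimum count of 10, a mean per group over all 12 libraries, and robust quasi-likelihood tests. P values were adjusted by Benjamini-Hochberg over all 15150 tested genes, with a threshold of 0.05. Alternatives were DESeq2 1.42.0 and, on log2 of FPKM plus 1, limma 3.58.1, restricted to genes that reach an FPKM of 1 in at least 3 libraries. The script was tested on simulated counts. Depth of 19056916 to 25371321 counts per library sets the precision of low genes such as E2f8 and Mybl2.

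The 45 genes and the other lists were chosen with earlier results of these data known. Named genes were 18 fixed genes and, for each list and comparison, the 3 with the largest change, taken among called genes for the lists outside the 45. Motifs were searched in RefSeq promoter windows of GRCm38.p6 (250 bases before to 50 after each start), and no sequence was printed for genes on chromosome 18.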

Additional observations from a re-analysis of the deposited data

How the results depend on the processing

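Of 28 values called for single genes of the 45, 557 refits under the alternatives kept the direction in every case and lost the call in 124. With edgeR on only the libraries of a comparison the calls were 3 for Smad7-KO against control in unstimulated cells (0 S phase, 3 G2/M), 12 with TGF-β1 (8 G2/M), 0 for TGF-β1 in control cells (0 S phase) and 7 in Smad7-KO cells (1 G2/M); the interaction could not be fitted on fewer libraries. With the trend on gene length removed they were 10 with TGF-β1 (6 G2/M) and, in unstimulated cells, 1 S phase gene. With no filter on low counts 1 S phase gene was called in unstimulated cells, and DESeq2 called 5 S phase genes with TGF-β1. Leaving out unstimulated control libraries 2 and 3 together, an alternative chosen after seeing the data in which the remaining control library is assumed to vary like the other groups, gave 16 calls with TGF-β1 (6 S phase, 9 G2/M and Ccnd1), 1 S phase gene in unstimulated cells and 1 G2/M gene for TGF-β1 in Smad7-KO cells. With only the libraries of a comparison the calls went down in some comparisons and up in others. The cause of the differences was not tested for any setting. Except with the trend on gene length removed, the share of all tested genes called in each refit is not given, here or below. A change in these counts is therefore not a result about the 45 genes alone.

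Leaving out 1 library gave 5 to 15 calls for Smad7-KO against control in unstimulated cells (0 to 4 S phase, 5 to 12 G2/M), 2 to 14 with TGF-β1 (1 to 5 S phase, 1 to 9 G2/M), 2 to 5 for TGF-β1 in control cells (2 to 5 S phase, 0 G2/M), 4 in Smad7-KO cells in every such fit and 0 for the interaction. DESeq2 size factors moved no count by over 1.5 times. Limma moved the median log2 fold change of the G2/M genes to 0.37 in unstimulated cells and 0.21 with TGF-β1, on a scale that understates low genes.

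Correlations of deviations from the group mean ran from -0.36 to 0.52 between libraries with the same replicate number. Between libraries with different numbers they ran from -0.56 to 0.55. These deviations also followed gene length, so they cannot tell whether the numbers pair the libraries. A fit with the replicate number as a block called 11, 5, 3, 4 and 0 genes in the 5 comparisons in the order above, interaction last. Genes at 1 to 3 CPM such as E2f8, Mybl2 and Cdc6 rest on few reads, and differences smaller than their intervals were not detectable at this depth.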
